A study of Danio rerio with 16 samples.

Results

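The 7 zebrafish genotypes that carry mutant alleles of gfi1aa, gfi1b or gfi1ab were compared, as a mean and each on its own, with wild type (WT). The members are all 14 mutant libraries and both WT libraries of a series of 16, and the question is which genes differed from WT in the same direction in every mutant genotype. Single mutants are gfi1b-/-, gfi1ab-/- and gfi1aa-/-, and double mutants (DM) are gfi1b/1ab DM, gfi1aa/1b DM and gfi1aa/1ab DM. The triple mutant, gfi1 TM, is mutant for all 3 genes. The alleles are smu10 for gfi1aa, smu11 for gfi1b and smu12 for gfi1ab. The fish were of the AB strain and the mutant lines. RNA came from whole embryos labelled as 15 hours post fertilization (hpf), with 2 libraries a genotype. Embryos were genotyped from intercrosses, with parents of other genotypes for each mutant line whose cross is given, and that of gfi1b/1ab DM is not given in the sources used here. The study's methods call the WT embryos wild type siblings without saying of which cross, and how many embryos entered a library is not given in the sources used here. The same 2 WT libraries therefore stand in all 7 comparisons, and the mutations cannot be told apart from a difference in clutch or parents between WT and the mutants.

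Gfi1 proteins are zinc finger transcription factors that repress genes by recruiting histone-modifying enzymes such as the demethylase Lsd1. In the zebrafish embryo they act in primitive hematopoiesis, where hemangioblasts give rise to the first red blood cells and to endothelium.

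Counts on genes totalled 15657371 to 22524501 per library (median 19442820), which was 77.3% to 80.4% of the reads in each file, and 19903 genes had enough counts to be tested. Between the replicates of a genotype, log2 CPM differed with a standard deviation over genes of 0.347 in gfi1aa-/- to 0.602 in gfi1 TM and 0.427 in WT. Along the first principal component of log2 CPM (a gene's counts scaled to a common, normalized library size), which held 21.04% of the variance, the WT libraries lay at 59.4 and 61.1 and the 14 mutant libraries between -29.9 and 29.9. The labels name no batch.

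None of the 3 targeted genes passed the test in the mean comparison, and each was counted in every library. gfi1aa (ENSDARG00000020746) had 10.7 and 10.9 CPM in WT and 7.0 to 13.02 CPM (median 9.69) in the 14 mutant libraries, a log2 fold change of -0.15 ± 0.12 (adjusted p = 0.43) for the mean of the 7 genotypes, where ± gives the standard error, as in all fold changes here. For gfi1b (ENSDARG00000079947) the values were 3.45 and 2.57 CPM in WT and 2.64 to 5.75 (median 3.74) in the mutants, with a log2 fold change of 0.42 ± 0.20 (adjusted p = 0.19). gfi1ab (ENSDARG00000044457) had 1.85 and 2.10 CPM in WT, 1.49 to 3.59 (median 2.24) in the mutants and a log2 fold change of 0.19 ± 0.21 (adjusted p = 0.60). The groups overlapped for all 3 genes. These means take in genotypes in which the gene in question is not mutated. In its own single mutant (edgeR quasi-likelihood test), gfi1aa differed from WT by -0.44 ± 0.16 (adjusted p = 0.094), gfi1b by 0.30 ± 0.26 (adjusted p = 0.55) and gfi1ab by -0.02 ± 0.29 (adjusted p = 0.98). By the same test, gfi1aa in its mutants differed from the other mutant genotypes by -0.27 ± 0.09 (adjusted p = 0.053). The study describes gfi1b and gfi1ab alleles as a short insertion and a short deletion, which need not stop the gene from being counted, so these levels do not check the labels.

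Against WT, the mean of the 7 mutant genotypes was higher for 1465 genes and lower for 1604, which is 7.36% and 8.06% of the genes tested (edgeR quasi-likelihood test with Benjamini-Hochberg adjusted p under 0.05). At an unadjusted p under 0.05 there were 5771 genes. Of the 3069 genes called, 2515 had 7 log2 fold changes of the same sign, 1256 upward and 1259 downward, and 554 had both signs. With no test, 15.5% of all genes tested had 7 changes upward and 14.5% had 7 downward. The 7 changes share the same WT libraries and make up the mean, so their equal signs are not independent support. Most calls did not repeat in every genotype. Among the 1465 higher genes, 141 were also called higher in each of the 7 genotypes, 152 in 6 of them, 221 in 5, 293 in 2 and 69 in 1. Of the 1604 lower genes, 100 were called lower in each genotype, 117 in 6, 154 in 5, 416 in 2 and 205 in 1. Leaving out WT replicate 1 brought the calls of the mean to 599 higher and 749 lower, and leaving out WT replicate 2 to 472 and 694. When the 14 mutant libraries were fitted as replicates of a single group, 285 genes were higher and 228 lower.

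**Figure D1:**
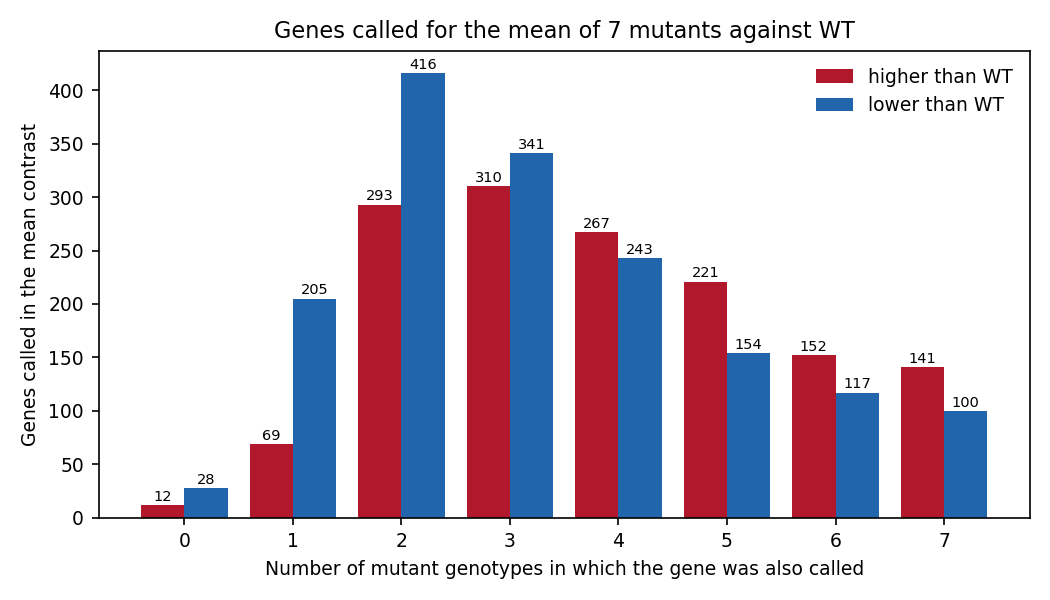
Genes called for the mean of the 7 mutant genotypes against WT, by the number of single genotypes (x axis, 0 to 7) in which the gene was called in the same direction; bars give the number of genes (y axis), red for higher and blue for lower than WT. The bars at 7 stand for 141 higher and 100 lower genes, and the tallest are at 3 for higher (310) and at 2 for lower genes (416).

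Taken singly, the genotypes differed from WT by unequal numbers of genes. The fewest were in gfi1b-/-, with 921 higher (4.63% of genes tested) and 961 lower (4.83%), or 9.46% in all. gfi1aa/1b DM had 988 (4.96%) and 941 (4.73%), or 9.69%. The genotypes next to these were gfi1ab-/-, with 1087 (5.46%) and 962 (4.83%), or 10.3%, and gfi1b/1ab DM, with 1146 (5.76%) and 964 (4.84%), or 10.6%. gfi1aa-/- had 1287 (6.47%) and 1126 (5.66%), or 12.1%, and gfi1 TM 1426 (7.16%) and 1184 (5.95%), or 13.1%. The most were in gfi1aa/1ab DM, with 2204 (11.1%) and 2361 (11.9%), or 22.9%. Each count fell by more than 1.5 times without either WT library, to between 952 (gfi1b-/-) and 2956 (gfi1aa/1ab DM) without WT replicate 1 and between 1008 (gfi1ab-/-) and 2506 (gfi1aa/1ab DM) without WT replicate 2. Leaving out a genotype's own library also moved most counts that far, to 1300 and 1168 for gfi1aa-/- without its replicates 1 and 2, 703 and 683 for gfi1b-/-, 747 and 677 for gfi1aa/1b DM, 2942 and 2677 for gfi1aa/1ab DM, 1107 and 930 for gfi1b/1ab DM, and 1352 and 4311 for gfi1 TM. For gfi1ab-/- the count was 1097 without its replicate 1.

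The pairwise comparisons show where WT stood among the 8 genotypes. WT differed from a mutant genotype by 1882 to 4565 genes (median 2110), while the 21 pairs of mutant genotypes differed by 76 to 4894 (median 1462). The smallest difference was that between gfi1ab-/- and gfi1b/1ab DM, with 76 genes. Of the 6 pairs that joined gfi1aa/1ab DM with another mutant genotype, that with gfi1 TM differed by 1008 genes and the others by 2812 or more. gfi1aa-/- differed from each other mutant genotype by at least 1780 genes, beside 2413 from WT.

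**Figure D2:**
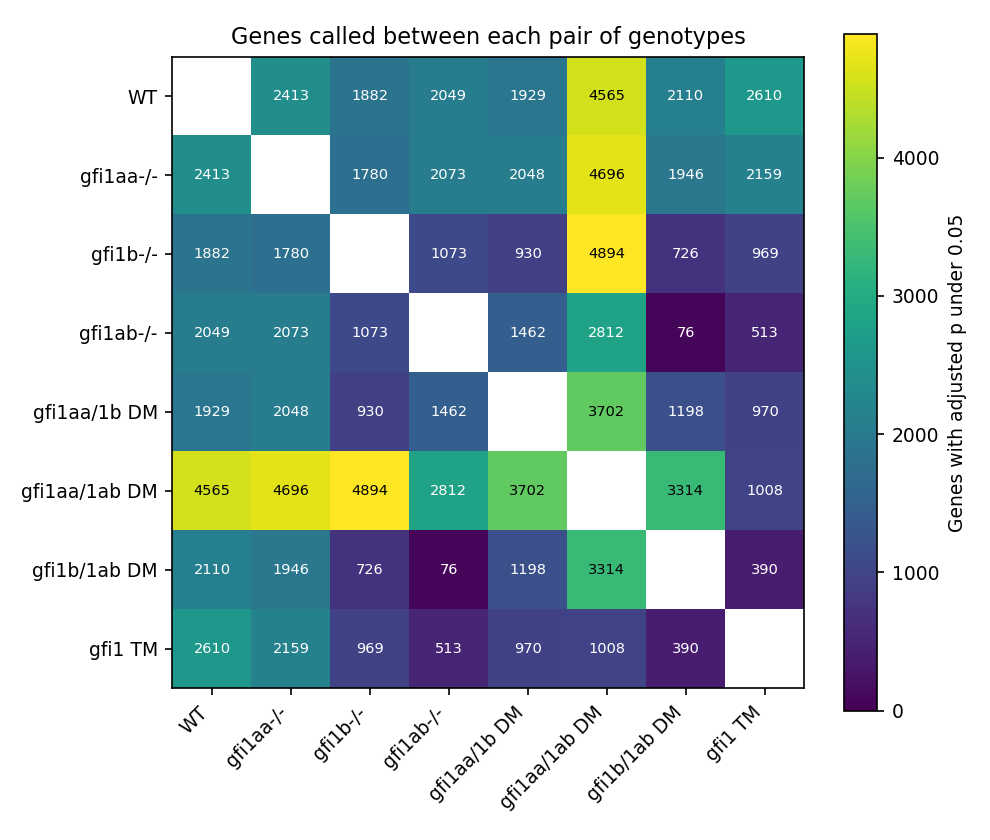
Number of genes with an adjusted p under 0.05 between each pair of the 8 genotypes (rows and columns), given in each cell and by colour from dark (few) to light (many). WT differs from every mutant genotype by at least 1882 genes, and the lowest cell, gfi1ab-/- against gfi1b/1ab DM, holds 76.

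The genes called in every genotype numbered 241, or 1.21% of those tested, with 141 higher (0.708%) and 100 lower (0.502%). In 139 of the 141 higher genes all 14 mutant libraries lay above both WT libraries, and in 99 of the 100 lower genes all 14 lay below. Over all genes tested, 4.94% had all mutant libraries above and 4.17% all below, 9.11% in either direction. These counts describe the rule and are not a test of it. The higher genes had a median log2 fold change of 1.89 and the lower genes of -1.38, against -0.006 for all genes tested. Both medians were the same with genes at 0 in a group set to their bound against 3 counts. Only 15 of the higher and 6 of the lower genes were so set, so the medians had little room to move. The size was at least 1 in 94 of the higher and 65 of the lower genes. Under a rule that asks for a call in every genotype, which favours like values, their medians lay close together. They ran from 1.70 in gfi1aa/1b DM to 2.05 in gfi1b/1ab DM for the higher genes. For the lower genes they ran from -1.43 in gfi1aa-/- to -1.26 in gfi1aa/1b DM. Most of the genes were of modest abundance, with a median of 7.43 CPM for the higher and 4.79 CPM for the lower genes against 10.2 CPM for all genes tested.

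Some of these genes were close to absent on a side. WT had 0 counts in both libraries for 15 of the higher genes, and at most 3 counts in each for 33. Of these 33, 29 had more than 3 counts in every mutant library. In the other direction, 6 of the lower genes had 0 counts in all 14 mutant libraries and 12 had at most 3 in each. Genes this low on a side had enough counts to be tested only through the side where they were high. Because the embryos are whole, fewer cells of a type and less RNA per cell cannot be told apart. The set leaned on both WT libraries. Without WT replicate 1, 66 of the 141 higher and 52 of the 100 lower genes were still called in every genotype, without WT replicate 2 it was 56 and 44, and 37 and 21 genes were so called in all 16 fits that left out a library.

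Among the 12 genes with a symbol of their own and the largest upward change were 7 zinc finger genes with numbered names. These belong to a large family of zebrafish C2H2 zinc finger genes, whose near-identical members may share reads, so their counts are uncertain. znf1113 (ENSDARG00000096172) had 0 counts in both WT libraries and 6 to 114 counts (median 64.5) in the mutants, at least 20.9-fold higher against a floor of 3 counts in a library. znf1122 (ENSDARG00000099444) also had 0 in WT, with 5 to 73 counts (median 34.5) in the mutants, at least 12.4-fold higher, and znf1092 (ENSDARG00000110670) had 0 against 2 to 28 (median 12.5), at least 4.80-fold higher. No mutant library was at 0 for any of the 3, as the rule for naming a gene asks. That rule also asks for a call in the mean comparison, where their adjusted p lay between 0.00091 and 0.0019. All 3 had enough counts to be tested only through the mutant libraries.

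The other 4 zinc finger genes had 1 to 3 counts in WT in all. For znf977 (ENSDARG00000087070), WT had 0.05 and 0.0952 CPM and the mutants 0.664 to 10.95 CPM (median 5.53), a ratio of 80.0 with an exact 95% counting interval of 27.3 to 388. Ratios for znf1177, znf1073 and znf1062 were 72.6 (12.96 to 2873), 60.4 (16.7 to 499) and 39.7 (13.5 to 193). As the rule for naming a gene asks, the highest WT library of each stayed below the lowest mutant library. The adjusted p of these 4 genes lay between 0.00020 and 0.00080. These intervals cover counting error only. Of the 218 tested zinc finger genes numbered from 900, 48 were higher and 33 lower in the mean comparison, 37.2% against 15.4% of all genes in either direction. Of the 218, 9 higher and 1 lower, or 4.59%, moved the same way in every genotype, against 1.21% of all genes. The group was picked after its members' values were seen. With libraries left out in turn, znf1062 was called in every genotype in 3 of the 16 fits, znf1113 in 10 and the other 5 in 12 to 14.

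The other 5 genes of the upward 12 encode a transporter, an adhesion protein, a retinol carrier, a microtubule regulator and a kinase. slc47a2.2 (ENSDARG00000074136), a transporter of the multidrug and toxin extrusion family, had 0 and 1 count in WT and 42 to 262 counts (median 154) in the mutants, a ratio of 332 (exact 95% counting interval 59.5 to 13120, adjusted p = 0.00022). Its lowest and highest mutant libraries, with 2.04 and 14.6 CPM, were the 2 of gfi1 TM. clstn2 (ENSDARG00000060637), which encodes a cadherin-like adhesion protein of synapses, had 0.05 and 0.0476 CPM in WT and 3.33 to 7.39 CPM (median 4.59) in the mutants, a ratio of 99.1 (27.4 to 819, adjusted p = 2.3e-07). rbp2b (ENSDARG00000093774), a cellular retinol-binding protein, had 0.0999 and 0.0476 CPM in WT and 1.26 to 6.6 CPM (median 3.13) in the mutants, a ratio of 45.7 (15.6 to 222, adjusted p = 2.3e-05). In each of these genes the mutant libraries lay far above both WT libraries. That they did not overlap follows from the rule for naming a gene.

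rmdn1 (ENSDARG00000074507), a regulator of microtubule dynamics, had 0.0999 and 0.572 CPM in WT and 6.6 to 15.2 CPM (median 13.3) in the mutants, a log2 fold change of 5.09 ± 0.28 (adjusted p = 3.6e-08). The lowest mutant libraries were those of gfi1aa-/-, where the log2 fold change was 4.43, and the highest fold change was 5.43 in gfi1 TM. prkcq (ENSDARG00000034173), which encodes protein kinase C theta, known for its part in T cell signalling, had 0.150 and 0.667 CPM in WT and 1.03 to 22.9 CPM (median 17.2) in the mutants, with a log2 fold change of 4.98 ± 0.59 (adjusted p = 7.0e-05). The mutants were uneven here, since gfi1aa/1ab DM had 1.03 and 5.66 CPM while both libraries of gfi1aa-/- had 22.9. slc47a2.2, clstn2, rbp2b and rmdn1 were called in every genotype in all 16 fits with a library left out, and prkcq in 14.

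**Figure D3:**
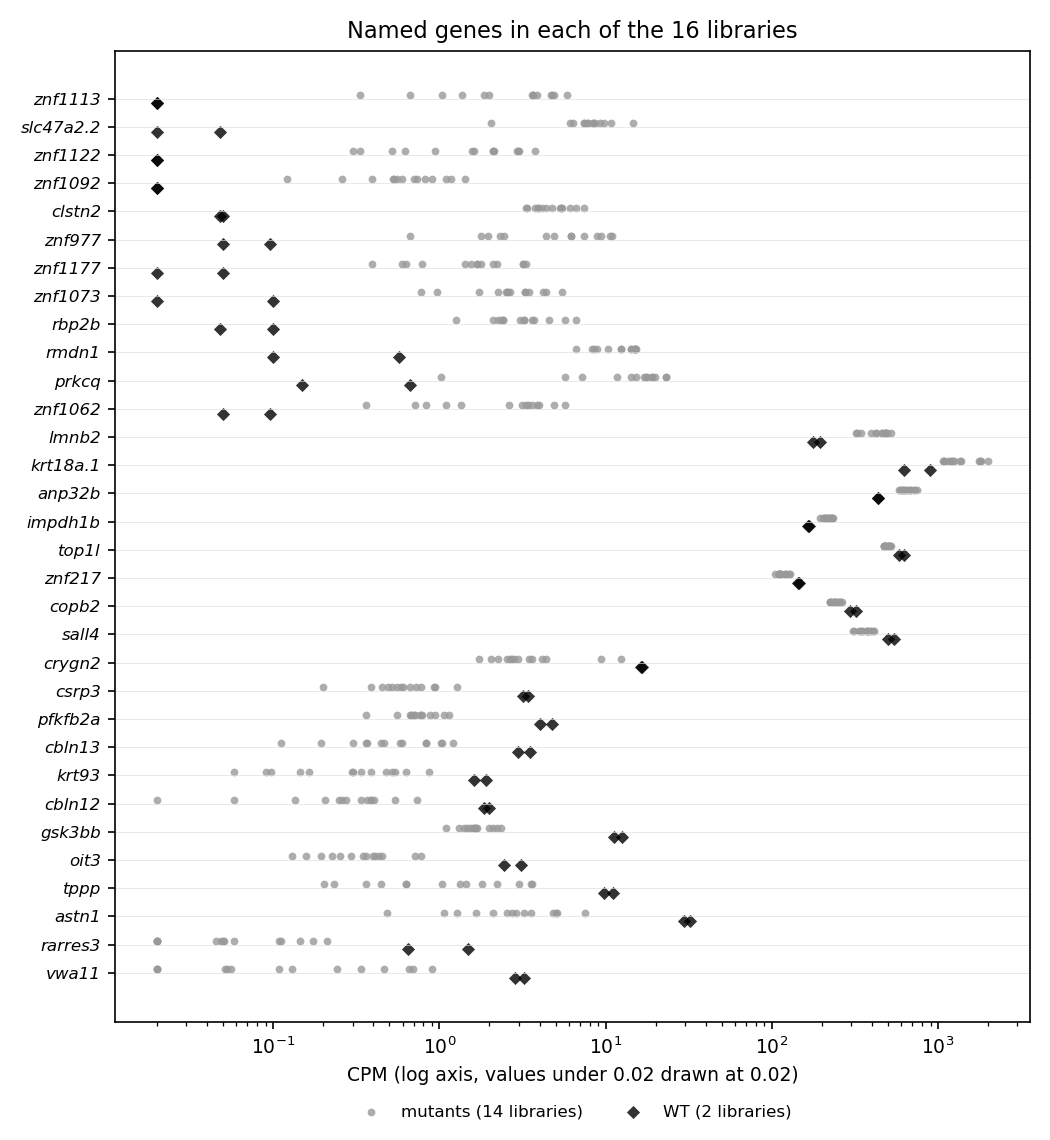
Level of each of the 32 named genes (y axis) in each library, in CPM on a log axis with values under 0.02 drawn at 0.02; black diamonds are the 2 WT libraries and grey circles the 14 mutant libraries, and genes are ordered by log2 fold change. In every row the diamonds lie to 1 side of all circles, as the rule for naming a gene asks; the gap is wide for genes such as clstn2 and gsk3bb and narrow for abundant genes such as impdh1b and znf217.

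Among the 12 genes with the largest downward change, some are known from neurons, muscle or lens, but clstn2 of synapses was among the upward 12. In the marker lists, 0 of 16 neural genes were called in the mean comparison. Of 23 muscle genes, 2 were lower (8.7%, against 8.06% of all genes). astn1 (ENSDARG00000068323), astrotactin, an adhesion protein of migrating neurons, had 29.6 and 32.0 CPM in WT and 0.485 to 7.53 CPM (median 2.80) in the mutants, a log2 fold change of -3.48 ± 0.26 (adjusted p = 8.4e-07). tppp (ENSDARG00000104399), a tubulin polymerization promoting protein, had 9.79 and 11.1 CPM in WT and 0.202 to 3.61 CPM (median 1.18) in the mutants, a log2 fold change of -3.33 ± 0.20 (adjusted p = 1.0e-07). In tppp the mutants fell into levels by genotype, since gfi1aa-/- and gfi1b-/- had 2.23 to 3.61 CPM and gfi1ab-/- and gfi1b/1ab DM 0.202 to 0.448.

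gsk3bb (ENSDARG00000052468), a copy of the glycogen synthase kinase 3 beta gene whose product acts in Wnt signalling, had 11.2 and 12.5 CPM in WT and 1.09 to 2.33 CPM (median 1.62) in the mutants. Its log2 fold change of -2.83 ± 0.15 (adjusted p = 3.5e-08) was nearly the same in each genotype, from -3.10 to -2.53. pfkfb2a (ENSDARG00000023840), a regulatory enzyme of glycolysis, had 4.75 and 4.0 CPM in WT and 0.362 to 1.14 CPM (median 0.738) in the mutants, a log2 fold change of -2.54 ± 0.19 (adjusted p = 6.1e-07). csrp3 (ENSDARG00000101706), a LIM protein of striated muscle, had 3.40 and 3.19 CPM in WT and 0.199 to 1.27 CPM (median 0.596) in the mutants, a log2 fold change of -2.38 ± 0.29 (adjusted p = 7.7e-05). None of these 3 genes had a mutant library that reached the lower WT library, as the rule for naming a gene asks.

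crygn2 (ENSDARG00000030411), a crystallin of the lens, had 16.6 and 16.3 CPM in WT. The mutants ranged from 1.74 to 12.3 CPM (median 2.89), for a log2 fold change of -2.25 ± 0.13 (adjusted p = 6.1e-08). Here gfi1aa-/- stood apart with 9.36 and 12.3 CPM and a log2 fold change of -0.60 (adjusted p = 0.045), while the other 6 genotypes had at most 4.36 CPM. cbln12 (ENSDARG00000068232) and cbln13 (ENSDARG00000026904) encode secreted proteins of the cerebellin family. cbln12 had 1.85 and 2.0 CPM in WT and up to 0.729 CPM (median 0.306) in the mutants, and cbln13 had 3.50 and 2.95 CPM in WT and 0.112 to 1.21 CPM (median 0.524) in the mutants. Their log2 fold changes were -2.77 ± 0.35 (adjusted p = 0.00012) and -2.57 ± 0.31 (adjusted p = 7.7e-05). Of 4 tested genes with a symbol starting in cbln, 3 were lower in the mean comparison, where 8.06% of all genes were, a group also picked after its values were seen.

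The remaining downward genes were of low abundance. vwa11 had 65 and 60 counts in WT and 0 to 20 counts (median 2) in the mutants, a log2 fold change of -4.31 ± 0.41 (adjusted p = 1.2e-05). rarres3 had 13 and 31 counts in WT and at most 4 in a mutant library, with a log2 fold change of -3.78 ± 0.58 (adjusted p = 0.00058). It had enough counts to be tested only through the WT libraries. Without WT replicate 2, this gene had a log2 fold change of -3.08 and was no longer called (adjusted p = 0.055). oit3 and the keratin gene krt93 had log2 fold changes of -3.00 ± 0.31 and -2.62 ± 0.30, with 2.43 to 3.10 CPM and 1.62 to 1.90 CPM in WT. In the 16 fits with a library left out, astn1, tppp, gsk3bb and pfkfb2a were called in every genotype each time, oit3 in 15, csrp3 in 13, vwa11 in 10, cbln13 in 8, crygn2 in 7, cbln12 in 6, krt93 in 3 and rarres3 in 2.

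**Figure D4:**
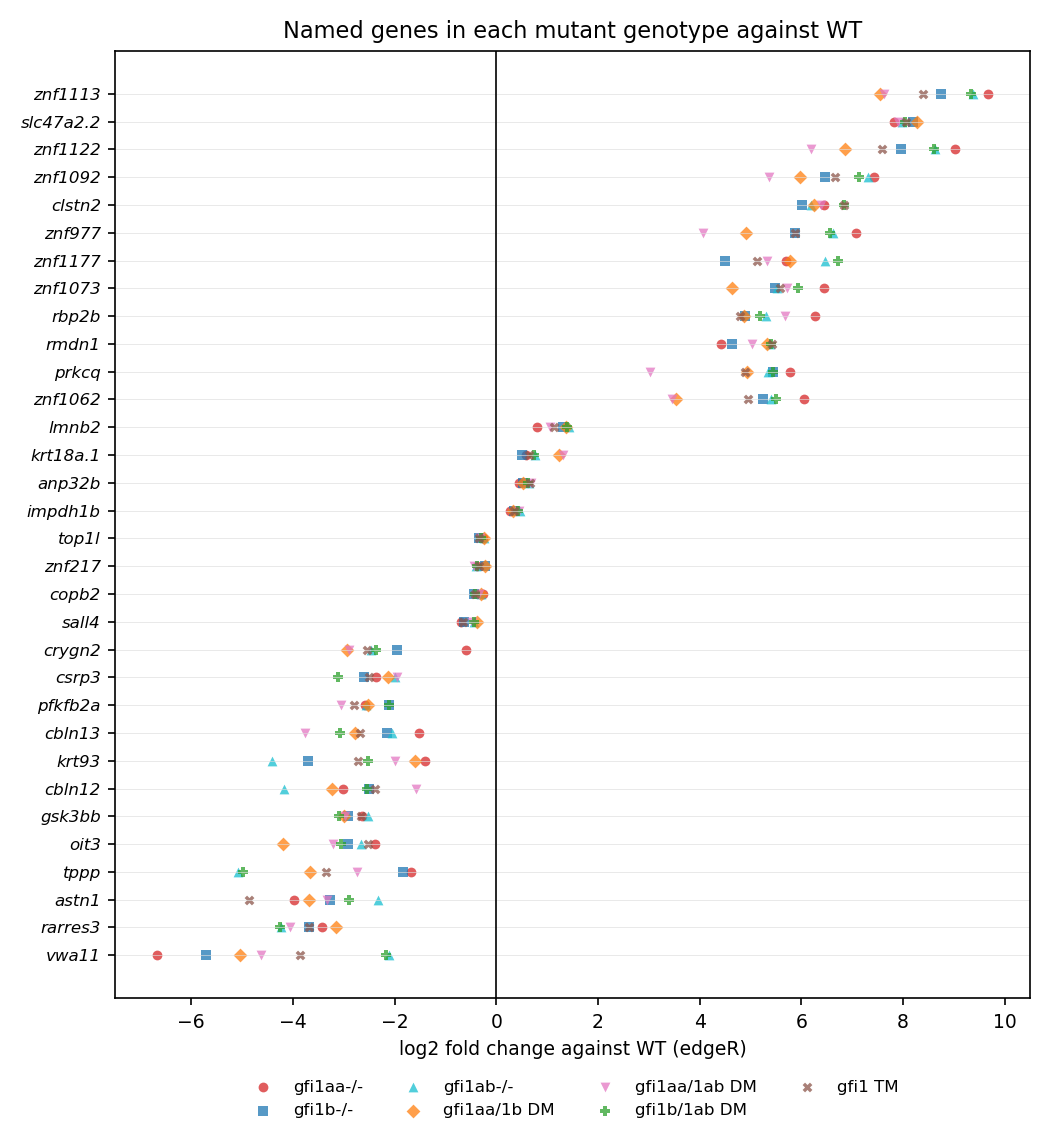
Log2 fold change against WT (x axis) of each named gene (y axis) in each of the 7 mutant genotypes, with a symbol and colour per genotype and a line at 0. All 7 symbols of a gene lie on the same side of 0, as the rule for naming it asks; those of gsk3bb lie between -3.10 and -2.53 and those of tppp between -5.08 and -1.67. Fitted values of genes with 0 counts in a group depend on the prior count.

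Abundant genes moved by less. krt18a.1 (ENSDARG00000018404), a keratin of simple epithelia, had 896 and 622 CPM in WT and 1075 to 2000.4 CPM (median 1236) in the mutants, a log2 fold change of 0.83 ± 0.10 (adjusted p = 8.5e-05). WT replicate 1 was the nearer of the WT libraries to the mutants, and gfi1aa/1b DM and gfi1aa/1ab DM were the highest genotypes, with 1766 to 2000.4 CPM. In the fit of all 14 mutant libraries as a single group, krt18a.1 was no longer called, at 0.87 (adjusted p = 0.059). lmnb2 (ENSDARG00000101624), a B-type lamin of the nuclear envelope, had 177 and 194 CPM in WT and 321 to 519.5 CPM (median 459) in the mutants, a log2 fold change of 1.22 ± 0.07 (adjusted p = 6.6e-08). anp32b (ENSDARG00000023330), a nuclear phosphoprotein, had 435 and 432 CPM in WT and 580.2 to 749.8 CPM (median 645) in the mutants, a log2 fold change of 0.59 ± 0.07 (adjusted p = 8.0e-05). The fourth, impdh1b, an enzyme of guanine nucleotide synthesis, had a log2 fold change of 0.38 ± 0.05 (adjusted p = 8.5e-05).

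On the downward side the most abundant were top1l, a topoisomerase I gene, sall4, a transcription factor of embryonic progenitors, copb2, a subunit of the coatomer coat, and znf217. sall4 (ENSDARG00000044485) had 500.3 and 546 CPM in WT and 306 to 414 CPM (median 373) in the mutants, a log2 fold change of -0.53 ± 0.06 (adjusted p = 3.0e-05). top1l had 621 and 582 CPM in WT and 469 to 519 CPM in the mutants, a log2 fold change of -0.29 ± 0.04 (adjusted p = 0.00041). The log2 fold changes of copb2 and znf217 were -0.35 ± 0.05 (adjusted p = 0.00035) and -0.34 ± 0.05 (adjusted p = 0.00025). The mutant libraries of all 4 genes lay below both WT libraries, as the rule for naming a gene asks. anp32b and lmnb2 were called in every genotype in all 16 fits with a library left out, sall4 in 14, krt18a.1 and impdh1b in 12, top1l and copb2 in 10 and znf217 in 2.

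Several genes of known function were also among the 241 and were picked after their values were seen. ezh2, the methyltransferase of Polycomb complexes, had 68.1 and 56.8 CPM in WT and 75.9 to 128 CPM (median 108) in the mutants, with a log2 fold change of 0.75 ± 0.09 (adjusted p = 7.7e-05). rad18, a ubiquitin ligase of DNA damage tolerance, had 9.64 and 8.19 CPM in WT and 25.6 to 33.7 CPM (median 28.9) in the mutants, a log2 fold change of 1.69 ± 0.10 (adjusted p = 1.0e-07). hmga1b, an architectural protein of chromatin, had 16.3 and 13.3 CPM in WT and 2.11 to 4.45 CPM (median 3.39) in the mutants, a log2 fold change of -2.13 ± 0.12 (adjusted p = 6.6e-08). In these 3 genes, too, mutant and WT libraries did not overlap, as in 139 of the 141 higher and 99 of the 100 lower genes.

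A further 5 genes were picked in the same way. psmb10, a subunit of the immunoproteasome, had 11.6 and 3.95 CPM in WT and 18.8 to 43.1 CPM in the mutants (log2 fold change 1.89 ± 0.28, adjusted p = 0.00045). erap1a, an aminopeptidase that trims antigen peptides, had 2.65 and 4.29 CPM in WT and 6.34 to 17.4 CPM in the mutants (log2 fold change 1.70 ± 0.20, adjusted p = 7.7e-05). unc93b1, which carries Toll-like receptors to endosomes, had 1.3 and 0.619 CPM in WT and 4.32 to 8.01 CPM in the mutants (log2 fold change 2.65 ± 0.22, adjusted p = 2.3e-06). aldh6a1, an enzyme of valine breakdown, had 94.1 and 102 CPM in WT and 24.4 to 64.3 CPM in the mutants (log2 fold change -1.11 ± 0.10, adjusted p = 7.1e-06). In the same direction, the coagulation factor gene f13a1b had 43.6 and 41.5 CPM in WT and 13.3 to 30.3 CPM in the mutants (log2 fold change -1.11 ± 0.07, adjusted p = 1.0e-07).

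Whether the 7 mutant genotypes differed among themselves was tested in the same fit, with contrasts that give WT no weight. The WT libraries still entered its estimate of the spread. By an F test over the 7 means, 99 of the 241 genes (41.1%) differed among mutants, against 33.6% of all genes tested, and these were 69 of the 141 higher and 30 of the 100 lower genes. The genotypes mutant for gfi1aa (gfi1aa related mutants) are gfi1 TM, gfi1aa/1ab DM, gfi1aa/1b DM and gfi1aa-/-. Between these and the 3 others, 48 of the 241 (19.9%) differed, against 13.6% of all genes. Of all genes, 6.45% had the higher level in gfi1aa related mutants and 7.13% the lower. The 241 were picked by calls in the same fit, which favours genes with a small estimated spread. These shares therefore cannot say whether the 241 vary more among mutants than other genes. Among the 141, gfi1aa related mutants had the higher level in 12 and the lower in 20, and among the 100 the higher in 9 and the lower in 7. The direction of the difference was thus mixed in both sets. Against WT, the mean of the gfi1aa related mutants was higher for 7.76% and lower for 8.33% of all genes tested, and the mean of the unrelated mutants for 6.74% and 7.12%. For lmnb2 the difference was -0.29 ± 0.05 on the log2 scale (adjusted p = 0.00087), and for krt18a.1 it was 0.27 ± 0.07 (adjusted p = 0.016).

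Markers of the cell types in the embryo, and lists of pathways, were read in the mean comparison, where 7.36% of all genes were higher and 8.06% lower. Of the 19 tested erythroid genes, 12 (63.2%) were lower, with a median log2 fold change of -0.94, but no member was called in every genotype. In the separate comparisons, 9 to 12 of them were lower in each gfi1aa related genotype and 0 or 1 in each of the others. The globin gene hbbe3 shows this, with 19.7 and 16.2 CPM in WT, 13.6 to 20.4 CPM in the 6 libraries of gfi1aa unrelated mutants and 0.262 to 2.71 CPM in the 8 of gfi1aa related mutants. Without WT replicate 1, 5 erythroid genes were lower in the mean comparison, and 7 without WT replicate 2. Endothelial and hemangioblast genes had 5 of 23 higher in the mean comparison (median 0.19), and 1 higher without WT replicate 1 and 2 without WT replicate 2. In the separate comparisons, 11 of them were higher in gfi1 TM, 9 in gfi1aa/1ab DM, 7 in gfi1aa-/- and 5 in gfi1aa/1b DM. In gfi1b-/-, gfi1ab-/- and gfi1b/1ab DM 0 were higher. Each of these and gfi1aa/1ab DM had 1 lower.

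The only member of any list that was called in all 7 genotypes was krt18a.1 of the epidermal list, where 5 of 15 genes were higher and 1 lower (median 0.14). krt5 and krt8, also keratins of the epidermis, had log2 fold changes of 0.30 ± 0.05 (adjusted p = 0.0013) and 0.43 ± 0.07 (adjusted p = 0.0011) and were called in 4 and 5 genotypes. Germ cell genes had 4 of 8 higher and 1 lower (median 0.73). Their nanos3, an RNA-binding regulator of primordial germ cells, had 1.55 and 2.86 CPM in WT and 3.89 to 12.2 CPM (median 6.47) in the mutants, a log2 fold change of 1.55 ± 0.31 (adjusted p = 0.0038), and it was called in 6 genotypes, all but gfi1aa-/-. No germ cell gene was higher without WT replicate 1, and 3 were without WT replicate 2.

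Ribosomal protein genes had the most calls of any list, 50 of 82 higher (61%), with a median log2 fold change of 0.23 and 80 of 82 above 0. The sign and size of this median held under the other scalings, with 0.23 and 0.24. The calls came mostly from gfi1aa/1ab DM, with 76 higher, and gfi1 TM, with 66, whereas gfi1aa/1b DM had 12 and the other 4 genotypes 0 to 3. Without WT replicate 1, 4 of the 82 were higher in the mean comparison, and likewise 4 without WT replicate 2. rpl31, with 1034 and 1091 CPM in WT and 1109 to 2387 CPM (median 1872) in the mutants, had a log2 fold change of 0.77 ± 0.08 (adjusted p = 2.7e-05) and was called in 6 genotypes. The exception was gfi1aa-/-, at 0.09 (adjusted p = 0.62).

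Each of the other lists had fewer calls in number than the erythroid and ribosomal protein lists. In share called in either direction, the germ cell list, with 62.5%, lay between them, and the rest lay below both. Over all genes, 7.36% were higher and 8.06% lower. Notochord genes had 4 of 8 lower, among them col2a1a with a log2 fold change of -0.70 ± 0.15 (adjusted p = 0.0054), but 0 were lower without either WT library. In the hatching gland list, 3 of 8 were lower and 1 higher. Its he1.2, a hatching enzyme gene, had 92.4 and 114 CPM in WT and 15.9 to 92.8 CPM (median 21.9) in the mutants, a log2 fold change of -1.73 ± 0.09 (adjusted p = 1.6e-08), with gfi1 TM alone not called, at -0.19 (adjusted p = 0.33), and overlapping WT. Among circadian clock genes 3 of 25 were higher and 1 lower. The higher ones were nr1d2b, a nuclear receptor that represses clock genes, at 0.97 ± 0.18, ciarta at 1.51 ± 0.27 and aanat2, an enzyme of melatonin synthesis, at 1.31 ± 0.22, each called in 5 genotypes, while 1 of the 25 was higher without WT replicate 2.

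Hypoxia and glycolysis genes had 2 of 15 higher and 4 lower, and 1 lower without either WT library. Their median log2 fold change was 0.09, with 10 of the 15 above 0. The stress-induced mTOR inhibitor ddit4 had 51.7 and 69.7 CPM in WT and 16.6 to 44.2 CPM (median 24.7) in the mutants, a log2 fold change of -1.19 ± 0.19 (adjusted p = 0.00074), and was called in 6 genotypes. Heat shock and chaperone genes had 1 of 15 higher and 4 lower, and 1 lower without WT replicate 2. Somite clock genes had 3 of 19 lower, and 1 without WT replicate 1. Muscle genes had 2 of 23 lower (8.7%), near the 8.06% of all genes. Of these 2, smyhc1, a slow muscle myosin, was called in 6 genotypes at -0.46 ± 0.06 (adjusted p = 8.9e-05). Of the neural (16), neural crest (9), immediate early (12) and gfi1 and Lsd1 cofactor (8) genes tested, 0 were called in either direction by edgeR or by DESeq2, while 4 of the neural, 3 of the neural crest, 2 of the immediate early and 2 of the cofactor genes had an unadjusted p under 0.05 in edgeR. Without WT replicate 1, 2 neural crest genes were lower. Polymorphic immune families had 2 of 63 higher and 9 lower, and 2 lower without WT replicate 1 and 3 without WT replicate 2. The myeloid list had 2 of 6 lower, the yolk syncytial layer, p53 pathway, sterol, replication and mitochondrially encoded lists 1 to 3 higher and 0 to 2 lower each.

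**Figure D5:**
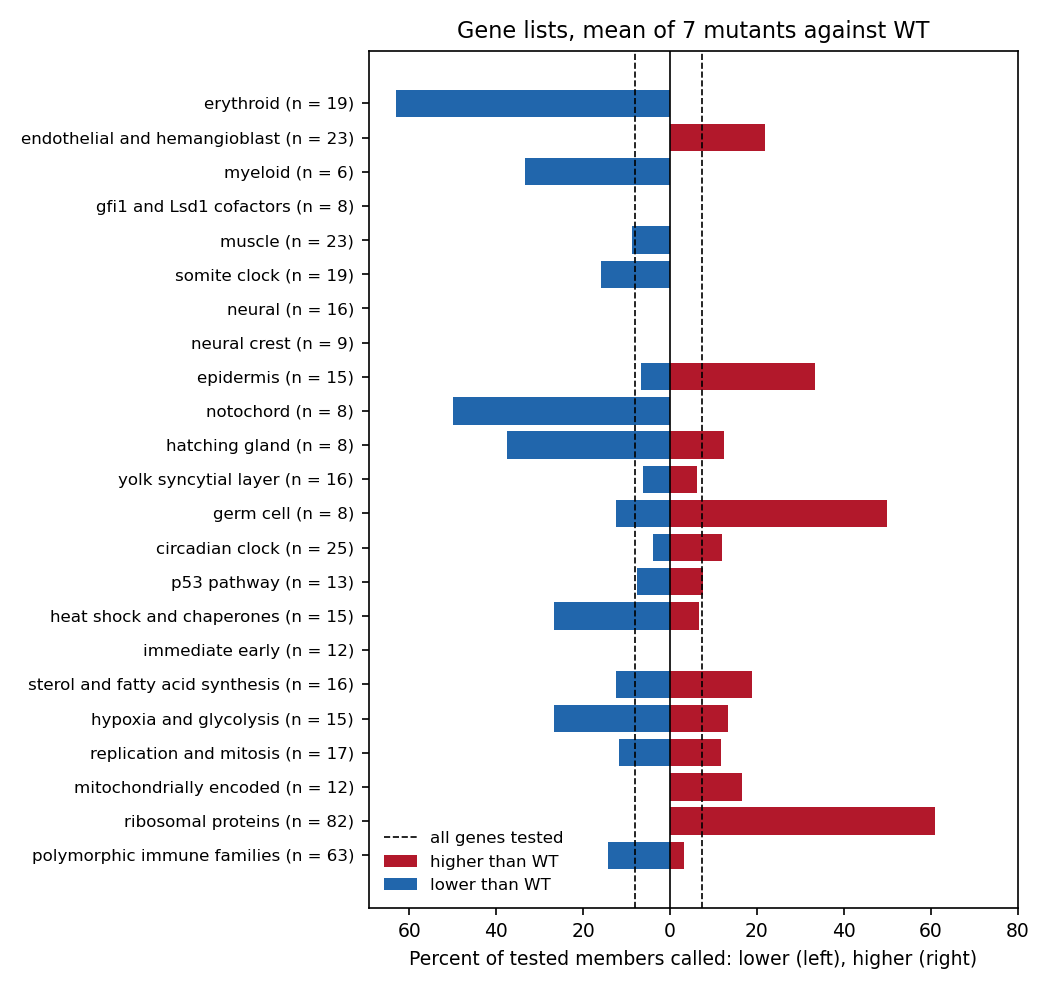
Percent of the tested members of each gene list called for the mean of the 7 mutant genotypes against WT, lower to the left in blue and higher to the right in red, with dashed lines at the percent of all genes tested (8.06 lower and 7.36 higher). The longest bars are those of erythroid genes, 63.2% lower, and ribosomal protein genes, 61% higher.

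Some genes moved opposite to another gene of the same symbol. Of 212 symbols carried by more than 1 tested gene identifier, 13 had calls in both directions in the mean comparison. Reads may match more than 1 near-identical copy, so each value is uncertain. st7 was the only symbol found in both sets of the 241. ENSDARG00000039960 had 2.45 and 1.33 CPM in WT and 3.83 to 5.77 CPM (median 4.78) in the mutants, a log2 fold change of 1.32 ± 0.22 (adjusted p = 0.00085). ENSDARG00000112691, also named st7, had 12.9 and 16.9 CPM in WT and 4.89 to 7.90 CPM (median 6.38) in the mutants, a log2 fold change of -1.21 ± 0.13 (adjusted p = 3.4e-05). Neither identifier had a mutant library within the range of WT, nor had their sum, at 15.3 and 18.2 CPM in WT and 8.73 to 13.6 CPM in the mutants.

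Genes of rrm2, a subunit of ribonucleotide reductase, moved further apart. ENSDARG00000020711 had 251 and 376 CPM in WT and 0.517 to 202 CPM (median 106) in the mutants, a log2 fold change of -2.62 ± 0.57 (adjusted p = 0.0065), and ENSDARG00000078069 had 118 and 13.8 CPM in WT and 173 to 451 CPM (median 283) in the mutants, a log2 fold change of 2.11 ± 0.49 (adjusted p = 0.0092). Summed over both identifiers, rrm2 had 369 and 390.0 CPM in WT and 315 to 451 CPM (median 376) in the mutants, so that the sums overlapped while the parts did not. rnps1, a splicing activator, also had identifiers that moved in opposite directions. Its ENSDARG00000116743 was among the 141, with 1.70 and 0.572 CPM in WT and 0.723 to 21.9 CPM (median 15.0) in the mutants, with gfi1 TM replicate 2 inside the range of WT. Its ENSDARG00000100188 had 30.4 and 28.5 CPM in WT and 10.3 to 28.4 CPM (median 16.5) in the mutants. The log2 fold changes were 3.61 ± 0.72 (adjusted p = 0.0037) and -0.81 ± 0.13 (adjusted p = 0.00089). The summed rnps1 level was 32.1 and 29.1 CPM in WT and 27.5 to 38.5 CPM (median 30.3) in the mutants.

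Some of the genes that moved the same way lay near each other, a pattern looked for after the values were seen and given as a description. Of the 159 with a symbol that is not a clone name, 140 (88.1%) could be placed by symbol in the gene order of the RefSeq annotation of GRCz12tu, a later assembly than the GRCz11 of the counts. Of these 140, 34 (24.3%) had another gene of the set within 5 placed genes on either side, against 8.26% of all 14642 placed genes. The 34 formed 14 runs, 10 of 2 genes, 2 of 3 and 2 of 4, and 12 runs held both directions. In the run copb2, rbp2b, clstn2 and epha4b, which spans 8 placed genes, rbp2b and clstn2 were higher and copb2 and epha4b, an ephrin receptor, lower. In inab, pnpla4, nlgn4xa and mxra5a, inab (an intermediate filament gene of neurons) and pnpla4 were higher, at 1.77 and 1.70 on the log2 scale, while nlgn4xa (a neuroligin) and mxra5a were lower, at -2.14 and -0.63. sall4 and znf217 formed a run in which both were lower, and impdh1b lay next to rap1b, which was lower.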

How the data were processed

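RNA-seq counts were analysed. The authors mapped reads with STAR to GRCz11 (tool version not given in the sources used here) and deposited whole-number counts per gene, without normalization, for each of 16 libraries. Counts from the column without regard to strand entered the fit. The same counts stand in a table of the series. Lines of unassigned reads (19.6% to 22.7% per library) were left out. edgeR (4.0.16) in R (4.3.3) gave TMM library sizes, a filterByExpr filter that kept 19903 of 28451 genes with a count, and a quasi-likelihood fit with 1 mean per genotype (8 residual degrees of freedom). The contrasts were the mean of the 7 mutant genotype means minus WT and each genotype minus WT, with Benjamini-Hochberg adjustment over all genes and a threshold of 0.05. A gene moved the same way when called with 1 sign in all 7. Standard errors came from the fold change and F statistic. CPM use TMM library sizes, and log2 CPM a prior count of 2. Lower bounds use 3 counts, and ratios with 1 to 3 counts in WT have exact binomial 95% counting intervals. DESeq2 (1.42.0) was an alternative, and Python (3.11.15) with pandas (2.3.3) handled tables. The fit was tested on simulated data.

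Named genes were called in all 7 genotypes and in the mean, with all 14 mutant libraries on 1 side of both WT libraries. Each has a symbol that is not a clone name. They are the 12 largest changes in each direction, the 4 with the highest mean CPM in each, and members of the gene lists. gfi1aa, gfi1b and gfi1ab were added apart from this rule, which they do not meet. The members and gene lists were chosen with earlier results of these data known. The labels do not say whether the 2 libraries of a genotype are separate clutches, so the p-values measure the spread between these libraries, which may be technical.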

Additional observations from a re-analysis of the deposited data

Results flagged for a closer look

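Of the 32 named genes, 9 differed in their change from WT between gfi1aa related and gfi1aa unrelated mutants (edgeR quasi-likelihood test of the difference, adjusted p under 0.05), given here as the mean of related minus the mean of unrelated genotypes on the log2 scale. By the same test, 13.6% of all genes tested differed, and 19.9% of the 241 genes called in every genotype. Whether the share among the 32 named genes exceeds these was not tested. Among the 9, genotypes within the related and unrelated means did not all follow the difference. Of the genes higher than WT, znf1122 differed by -0.98 ± 0.30 (adjusted p = 0.043), znf1062 by -0.89 ± 0.28 (adjusted p = 0.047), znf977 by -0.87 ± 0.25 (adjusted p = 0.034) and prkcq by -0.75 ± 0.22 (adjusted p = 0.035). All 4 had their highest log2 fold change of the 7 genotypes in gfi1aa-/-, itself a related mutant, and their lowest in gfi1aa/1ab DM. lmnb2 differed by -0.29 ± 0.05 (adjusted p = 0.00087), with gfi1aa-/- lowest at 0.80 but gfi1aa/1b DM, at 1.38, above the unrelated gfi1b-/-, at 1.31. krt18a.1 differed by 0.27 ± 0.07 (adjusted p = 0.016), with gfi1aa/1b DM and gfi1aa/1ab DM at 1.24 and 1.32 and gfi1aa-/- and gfi1 TM, at 0.59 and 0.65, inside the unrelated range of 0.51 to 0.77.

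Of the genes lower than WT, astn1 differed by -1.13 ± 0.29 (adjusted p = 0.019), and each of the 4 related genotypes, at -4.87 to -3.33, lay below the 3 unrelated, at -3.26 to -2.33. tppp differed by 1.11 ± 0.26 (adjusted p = 0.012), with gfi1ab-/- and gfi1b/1ab DM at -5.08 and -4.98 but the unrelated gfi1b-/-, at -1.83, above all related genotypes except gfi1aa-/-, at -1.67. krt93 differed by 1.62 ± 0.36 (adjusted p = 0.0085), with gfi1 TM, at -2.72, below the unrelated gfi1b/1ab DM, at -2.52. All 9 genes kept their side of WT in all 14 mutant libraries, as the rule for naming a gene asks.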

How the results depend on the processing

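Most counts depended on the WT libraries and on single mutant libraries. The highest value of each range given next came without gfi1 TM replicate 2. That library had the lowest share of reads on genes (77.3%), and its genotype the widest spread between replicates (0.602). In fits that each left out a library, the calls of the mean of the 7 genotypes ranged from 472 (without WT replicate 2) to 1968 (without gfi1 TM replicate 2) higher and from 694 to 2321 lower, and the genes called in every genotype from 63 to 197 higher and from 51 (without gfi1aa/1b DM replicate 2) to 138 lower. Single genotypes ranged from 1168 to 3155 calls (gfi1aa-/-), 683 to 2660 (gfi1b-/-), 1008 to 2824 (gfi1ab-/-), 677 to 2658 (gfi1aa/1b DM), 2506 to 5684 (gfi1aa/1ab DM), 930 to 2843 (gfi1b/1ab DM) and 1108 to 4311 (gfi1 TM). With 2 means only, 14 mutant libraries against WT, 285 genes were higher and 228 lower, all among the main calls.

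The genes lower in every genotype were 162 without a filter on low counts, 58 with a strict filter (1 CPM in 14 libraries) and 58 by DESeq2's Wald test. gfi1b/1ab DM had 1397 calls with the strict filter. Asking for a log2 fold change of at least 1 in every genotype left 83 higher and 47 lower genes. Asking only for 7 equal signs and a call of the mean gave 1256 and 1259, and only for all 14 libraries on 1 side of WT 984 and 829. Equal signs alone, with no test, occurred upward in 15.5% and downward in 14.5% of all genes tested. With each genotype fitted with WT alone, 30 were higher and 33 lower, 29 and 30 of them shared with the main fit. Replicate numbers in the labels did not pair the samples: the deviations of same-numbered libraries correlated at -0.09 to 0.09 over 28 pairs of genotypes, 0 of them over 0.1. With the replicate number as a block, the mean comparison gave 1359 and 1490 calls, and 121 and 89 genes were called in every genotype. Named genes kept their direction under each alternative in which they were tested. Of the 32 called in the mean comparison, calls were lost for rarres3 without WT replicate 2 (-3.08, adjusted p = 0.055) and for krt18a.1 with 2 means only (0.87, adjusted p = 0.059; this fit of named genes was chosen after seeing the data), and 17 were not tested under the strict filter. Where no cause is given, the cause was not tested.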
